A study of Mus musculus with 8 samples.

Results

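Il1a, Il1b and Il1rn, the genes for the IL-1 agonists IL-1α and IL-1β and for the IL-1 receptor antagonist, were followed in liver across diet, genotype and ischemia-reperfusion injury (IRI). They are 3 of the 84 cytokine and chemokine genes on a PCR array that also held 5 housekeeping genes, and they were chosen by gene symbol. The array was run on 8 liver RNA pools, 1 for each combination of genotype, diet and injury. The genotypes were Rag1-Tbet DKO, which lacks Rag1 and Tbx21 (the gene for T-bet), and Rag1-/-. All pools, controls included, therefore came from mice without T cells and B cells, and no wild-type pool was analysed here. The mice were fed a lard-based high-fat diet (HFD) or a normal diet (ND). The paper's methods give 12 weeks of HFD, and its results allow a longer time for these genotypes. An age of 17 to 19 weeks at evaluation is stated for the injury and imaging experiments with these genotypes, and not for the array itself. IRI was 45 minutes of partial warm ischemia with 24 hours of reperfusion, and non-IRI controls had anesthesia and laparotomy alone. After IRI only the left lobe was collected, and from controls the entire liver, so that a difference between IRI and non-IRI pools cannot be told apart from that sampling difference. Each pool held RNA of at least 3 livers and each gene was read in 1 well per pool.

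IL-1α and IL-1β bind the same receptor, IL1R1, and switch on inflammatory genes through MyD88 and NF-κB. IL-1β is made mainly by macrophages, monocytes and neutrophils as a precursor that caspase-1 cleaves, whereas IL-1α is active as a precursor and is released from dying cells as an alarmin. The IL-1 receptor antagonist occupies IL1R1 without signaling. It is secreted by macrophages and neutrophils and, as an acute-phase protein, by hepatocytes. Transcript levels do not show cleavage, release or receptor occupancy.

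In the RefSeq annotation of assembly GRCm38.p6 all 3 genes lie on chromosome 2. Il1b (array identifier NM_008361) spans chr2:129364569-129371164 and Il1a (NM_010554) spans chr2:129299609-129310186, both on the minus strand. The antagonist gene Il1rn (NM_031167) spans chr2:24336860-24351491 on the plus strand. The promoter set used here holds 3 starts for Il1rn and 1 each for the agonists. The array, with 1 assay for Il1rn, does not separate transcripts from different starts. The 250 bases before each start are shown so that the promoters of the agonists and of the antagonist can be compared, 5′ to 3′ on the strand of the gene, from RefSeq. They run over chr2:129371140-129371389 for Il1b, chr2:129309973-129310222 for Il1a, chr2:24336610-24336859 for the first start of Il1rn and chr2:24345041-24345290 for its second, which lies inside the gene. The Il1b and Il1a windows overlap the gene spans above, so the starts used for them also lie inside those spans. The window of the third Il1rn start overlaps the second and is not shown. Capitals mark matches on either strand to TATAAA (the TATA box), TGANTCA (AP-1), TTNNGNAA (used here for C/EBP) or a 10-base consensus of the NF-κB site.
Il1b: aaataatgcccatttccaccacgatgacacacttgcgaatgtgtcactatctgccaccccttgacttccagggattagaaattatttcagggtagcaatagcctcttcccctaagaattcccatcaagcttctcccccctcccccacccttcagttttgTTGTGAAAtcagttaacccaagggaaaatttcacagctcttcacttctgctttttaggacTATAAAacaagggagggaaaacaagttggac
Il1a: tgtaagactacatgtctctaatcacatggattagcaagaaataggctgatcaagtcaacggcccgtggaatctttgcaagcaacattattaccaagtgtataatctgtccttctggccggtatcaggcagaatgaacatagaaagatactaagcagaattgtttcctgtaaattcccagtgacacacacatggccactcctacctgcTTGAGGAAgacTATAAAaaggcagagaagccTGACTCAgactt
Il1rn, first start: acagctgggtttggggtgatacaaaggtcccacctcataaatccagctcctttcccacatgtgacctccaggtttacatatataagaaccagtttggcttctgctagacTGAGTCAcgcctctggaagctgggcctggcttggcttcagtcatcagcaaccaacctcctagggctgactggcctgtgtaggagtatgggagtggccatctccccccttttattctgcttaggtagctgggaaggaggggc
Il1rn, second start: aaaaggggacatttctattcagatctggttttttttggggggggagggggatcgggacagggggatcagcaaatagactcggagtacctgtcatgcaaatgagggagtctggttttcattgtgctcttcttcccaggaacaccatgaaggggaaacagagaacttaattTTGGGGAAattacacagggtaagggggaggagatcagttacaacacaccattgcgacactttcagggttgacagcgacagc
TATAAA occurred 31 bases before the start of Il1b and 32 bases before that of Il1a, and in none of the 3 Il1rn windows. Of 32851 promoter windows of the same length, 12.4% held it. TGANTCA was found for Il1a and at the first start of Il1rn (6.75% of windows), and TTNNGNAA for Il1b, Il1a and the second and the third start of Il1rn (36.9% of windows). The NF-κB consensus was in none of these windows (1.21% of all), and looser forms of that site were not searched. A match is a description of the letters and not a mapped binding site.

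Each well gave a threshold cycle (Ct), the PCR cycle at which its fluorescence crosses the threshold. A Ct smaller by 1 cycle stands for about 2-fold more template, and 35 was taken as the limit of detection. None of the 24 member wells was at that limit. Levels are given as -ΔCt, the mean Ct of Actb and Hsp90ab1 minus the Ct of the gene, a log2 scale on which a higher value is a higher level. A level of one gene cannot be set against that of another on this scale, since assays differ in product length and yield. With 1 pool per condition no replicate error exists and no test was run. If the 4 comparisons of a contrast were treated as pairs, an exact sign-flip test could not give a two-sided p below 0.125. As a technical yardstick, the Ct difference between 2 housekeeping genes shifted by a median of about 0.38 cycles and at most 1.21 cycles over 120 such comparisons between pools, and by 1 cycle or more in 6 of them. Of these 6, 2 were in the diet comparison of uninjured Rag1-/- liver (median 0.64 cycles) and 4 in the genotype comparison of uninjured ND liver (median 0.85 cycles). Both comparisons use the ND Rag1-/- non-IRI pool, where Il1rn was lowest, and no count was repeated without that pool. The yardstick measures neither the spread of the members between livers nor the noise of the member wells.

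Across the array, 6 to 17 of the 84 genes per pool reached the limit, and the median Ct over the 62 genes detected in every pool ran between 23.93 and 26.21. The ND Rag1-Tbet DKO non-IRI pool stood apart in 2 wells, Il3 at a Ct of 9.36 and Cd40lg at 11.44, below the housekeeping genes of that pool (12.36 to 19.55). The counts of member values and of Il1rn shifts below are therefore also given without the comparisons that use that pool. Counts of listed genes and of genes over all 4 comparisons were not repeated without it. Adipoq, a marker of adipose tissue, was at the limit in 3 of 4 IRI and 2 of 4 non-IRI pools. Wells of 6 genes for T cell products reached the limit in 8 of 24 cases in IRI pools and 12 of 24 in non-IRI pools. The summed level of these genes lay between -12.3 and -8.96 in IRI pools and between -11.2 and 3.60 in non-IRI pools, the last in the pool with the low Cd40lg well. Summed levels of the hepatocyte genes Hc and Thpo lay between -0.27 and 0.05 in IRI pools and between -1.13 and 0.28 in non-IRI pools.

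The antagonist varied most among the 3 genes. After IRI the Ct of Il1rn was 21.28 (HFD Rag1-Tbet DKO), 21.97 (ND Rag1-Tbet DKO), 21.72 (HFD Rag1-/-) and 23.76 (ND Rag1-/-). Without IRI it was 23.75 (HFD Rag1-Tbet DKO), 22.80 (ND Rag1-Tbet DKO), 21.84 (HFD Rag1-/-) and 25.17 (ND Rag1-/-). As -ΔCt, Il1rn ran between -9.59 in ND Rag1-/- non-IRI liver and -5.51 in ND Rag1-Tbet DKO IRI liver, a 16.9-fold range. That range of 4.08 cycles ranked 11 among the 62 genes, whose median range was 2.87 cycles. Both Rag1-Tbet DKO IRI pools and the HFD Rag1-/- IRI pool lay together at the top, between -5.815 and -5.51, and the uninjured HFD Rag1-/- pool followed at -6.62. The largest gap between neighbours in this order was 1.345 cycles, between the lowest pool and HFD Rag1-Tbet DKO non-IRI liver.

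Il1b ranged over 3.06 cycles, rank 28 of 62. With IRI its Ct was 21.27 (HFD Rag1-Tbet DKO), 20.93 (ND Rag1-Tbet DKO), 22.95 (HFD Rag1-/-) and 23.34 (ND Rag1-/-). Without IRI it was 22.49 (HFD Rag1-Tbet DKO), 20.88 (ND Rag1-Tbet DKO), 21.93 (HFD Rag1-/-) and 22.18 (ND Rag1-/-). The highest -ΔCt was -4.47, in the ND Rag1-Tbet DKO IRI pool, and the lowest was -7.53, in the ND Rag1-/- IRI pool, so that the extremes were the injured normal-diet pools of the 2 genotypes.

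Il1a varied least, over 1.64 cycles, rank 44 of 62. Its Ct was 22.24 in HFD Rag1-Tbet DKO IRI, 22.70 in ND Rag1-Tbet DKO IRI, 22.18 in HFD Rag1-/- IRI and 22.33 in ND Rag1-/- IRI liver. The non-IRI livers had Ct values of 21.83 (HFD Rag1-Tbet DKO), 20.54 (ND Rag1-Tbet DKO), 21.24 (HFD Rag1-/-) and 22.72 (ND Rag1-/-). The -ΔCt of the 4 IRI pools lay between -6.575 and -6.24, inside the range of the non-IRI pools (-7.14 to -5.50). No gap between neighbouring pools exceeded 0.565 cycles, and 5 of the 7 gaps were below the median shift between housekeeping genes.

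**Figure D1:**
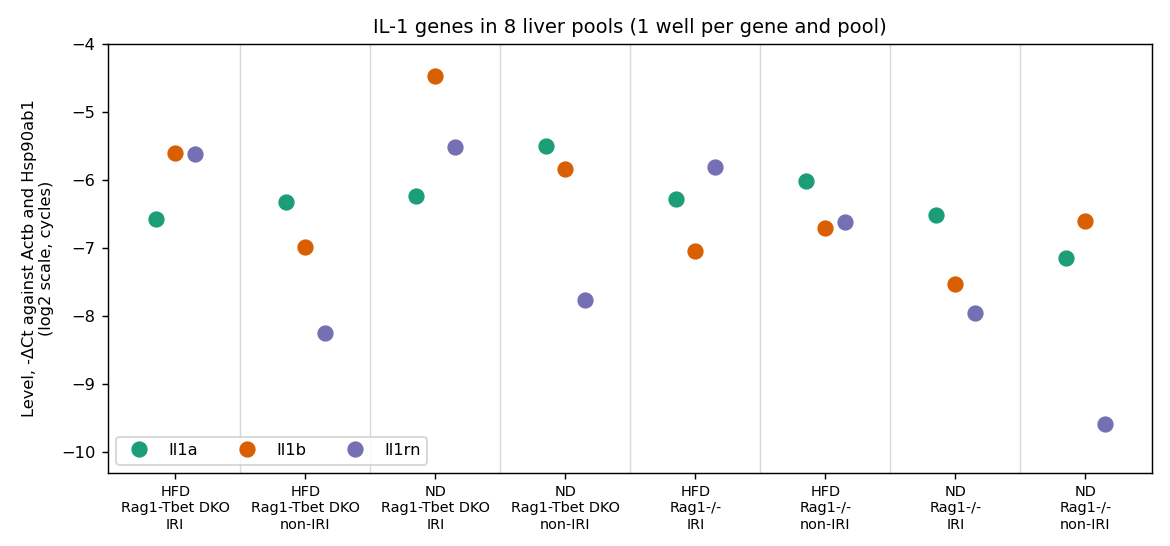
Level of Il1a, Il1b and Il1rn as -ΔCt (log2 scale, cycles) in each of the 8 pools, with 1 point per gene and pool and no error bars because each gene was read in 1 well. Il1rn runs from -9.59 to -5.51 and Il1a from -7.14 to -5.50, and heights of different genes are not comparable because the assays differ.

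The first comparison was of IRI with non-IRI liver on the same diet. Il1rn was above its non-IRI level in 4 of 4 comparisons, as were 20 of 71 array genes (28.2%). Its log2 difference was 2.63 (6.19-fold) in HFD Rag1-Tbet DKO, 2.25 (4.76-fold) in ND Rag1-Tbet DKO, 1.64 (3.12-fold) in ND Rag1-/- and 0.805 (1.75-fold) in HFD Rag1-/- liver. Il1b in Rag1-Tbet DKO mice was above the non-IRI level by 2.60-fold on HFD and 2.58-fold on ND. In Rag1-/- liver it was below the non-IRI level, by 1.26-fold on HFD and 1.91-fold on ND, both less than the 2-fold threshold. On ND it passed 2-fold downward with Actb, Hsp90ab1 and Gapdh (log2 -1.16), all 5 housekeeping genes (-1.33) and the deposited normalized values (-1.15). It also did with Nodal, Il9 and Csf1 (-2.39) and the array's median Ct (-2.19), but not with Actb (-0.98) or Hsp90ab1 (-0.88) alone. Il1a stayed within 2-fold in all 4 comparisons, with log2 differences from -0.74 (ND Rag1-Tbet DKO) to 0.62 (ND Rag1-/-).

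At 2-fold, 5 of the 12 member values were higher and 0 lower after IRI, or 3 of 9 higher without the ND Rag1-Tbet DKO non-IRI pool. Many array genes were also higher. Among HFD Rag1-Tbet DKO pools 55.8% of all genes with a value passed 2-fold upward after IRI and 5.19% downward, and the median log2 difference was 0.94. In ND Rag1-Tbet DKO liver 50.0% were higher and 11.2% lower (median 1.06), and in ND Rag1-/- liver 50.7% and 5.33% (median 0.97). In HFD Rag1-/- liver, where no member passed the threshold, 10.4% were higher and 15.6% lower (median -0.165). The count of members was thus close to the share of all genes in the Rag1-Tbet DKO pools. Positions within the array do not depend on the reference genes. They were taken among genes below the limit in both pools, so genes with only a bound are left out. In HFD Rag1-Tbet DKO liver such genes lay above Il1rn, for example Ccl20 (log2 at least 5.34) and Il2 (at least 4.35). Il1rn ranked 15 of 67 genes in HFD Rag1-Tbet DKO, 19 of 74 in ND Rag1-Tbet DKO, 16 of 75 in HFD Rag1-/- and 13 of 68 in ND Rag1-/- liver, counted from the highest difference. Il1b ranked 27 of 67 and 30 of 74 in HFD and ND Rag1-Tbet DKO liver, and 45 of 75 and 65 of 68 in HFD and ND Rag1-/- liver. Il1a ranked 65 of 74 in ND Rag1-Tbet DKO liver and 54 of 67 in HFD Rag1-Tbet DKO liver.

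The split of calls depended on the reference genes. Against the array's median Ct, 3 member values were higher and 3 lower, with Nodal, Il9 and Csf1 1 was higher and 4 were lower, and with the deposited normalized values 2 were higher and 3 lower. Over 7 reference settings Il1rn was above the non-IRI level in 7 of 7 settings in each comparison except HFD Rag1-/-, where it was above in 6 of 7 (log2 from -0.08 to 1.02). Il1b was above in 7 of 7 in both Rag1-Tbet DKO comparisons, with a lowest log2 value of 0.07 on HFD and 0.02 on ND, and in 0 of 7 in both Rag1-/- comparisons. Fewer cells that express a gene and less RNA per cell cannot be told apart in these bulk livers.

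The Ct difference between antagonist and agonist within a pool needs no reference gene. It is given as the Ct of the agonist minus the Ct of Il1rn, so that a higher value means more antagonist relative to agonist. Against Il1b it was -0.01 in IRI and -1.26 in non-IRI HFD Rag1-Tbet DKO liver, -1.04 in IRI and -1.92 in non-IRI ND Rag1-Tbet DKO liver, 1.23 in IRI and 0.09 in non-IRI HFD Rag1-/- liver, and -0.42 in IRI and -2.99 in non-IRI ND Rag1-/- liver. The difference was higher after IRI in 4 of 4 comparisons, by 1.25, 0.88, 1.14 and 2.57 cycles in the same order. Among 70 other array genes, 14 (20.0%) were higher relative to Il1b in all 4 comparisons, Il1rn among them. The shift of 2.57 cycles in ND Rag1-/- liver was shared with most of the array, since 86.5% of genes gained at least 1 cycle on Il1b there. In the other comparisons that share was 34.2% (HFD Rag1-Tbet DKO), 24.1% (ND Rag1-Tbet DKO) and 22.4% (HFD Rag1-/-). The share that lost at least 1 cycle on Il1b was 32.9% in HFD Rag1-Tbet DKO, 45.6% in ND Rag1-Tbet DKO, 10.5% in HFD Rag1-/- and 1.35% in ND Rag1-/- liver.

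Against Il1a the IRI pools had 0.96 (HFD Rag1-Tbet DKO), 0.73 (ND Rag1-Tbet DKO), 0.46 (HFD Rag1-/-) and -1.43 cycles (ND Rag1-/-). The non-IRI pools had -1.92, -2.26, -0.60 and -2.45 cycles in that order. The shift with injury was 2.88 cycles on HFD and 2.99 cycles on ND in Rag1-Tbet DKO liver, against 1.06 cycles on HFD and 1.02 cycles on ND in Rag1-/- liver. Within a genotype the diets thus differed by at most 0.11 cycles, and between genotypes the shift differed by 1.82 cycles on HFD and 1.97 cycles on ND. The difference between genotypes was not tested, because each shift rests on 4 single wells. In Rag1-Tbet DKO liver 59.2% (HFD) and 55.7% (ND) of genes gained at least 1 cycle on Il1a, and in Rag1-/- liver 21.1% (HFD) and 27.0% (ND) did. Losses of at least 1 cycle on Il1a were seen for 2.63% and 5.06% of genes in HFD and ND Rag1-Tbet DKO liver and for 11.8% and 9.46% in HFD and ND Rag1-/- liver. Of 70 genes, 24 (34.3%) were higher relative to Il1a in all 4 comparisons.

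In all, 7 of 8 shifts of Il1rn against an agonist were up by at least 1 cycle with injury and 0 were down, or 6 of 6 up without the ND Rag1-Tbet DKO non-IRI pool. The share of all genes up by as much was 22.4% to 86.5% against Il1b and 21.1% to 59.2% against Il1a. The 8 shifts come from 4 pairs of pools, with each Il1rn difference set against both agonists, and are not independent. The same holds for the diet and genotype counts of shifts below. Only 3 of the 8 passed a 3-fold threshold, and 5 passed 2-fold with amplification by 1.9 per cycle, where the shifts against Il1a in Rag1-/- liver were 0.98 on HFD and 0.94 on ND. The agonists themselves moved apart. The Ct of Il1a minus that of Il1b was 0.97 in IRI and -0.66 in non-IRI HFD Rag1-Tbet DKO liver, and 1.77 in IRI and -0.34 in non-IRI ND Rag1-Tbet DKO liver. It was -0.77 in IRI and -0.69 in non-IRI HFD Rag1-/- liver, and -1.01 in IRI and 0.54 in non-IRI ND Rag1-/- liver. Il1b thus gained 1.63 and 2.11 cycles on Il1a with injury in HFD and ND Rag1-Tbet DKO liver, changed by -0.08 cycles in HFD Rag1-/- liver and lost 1.55 cycles in ND Rag1-/- liver (a shift of -1.55).

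**Figure D2:**
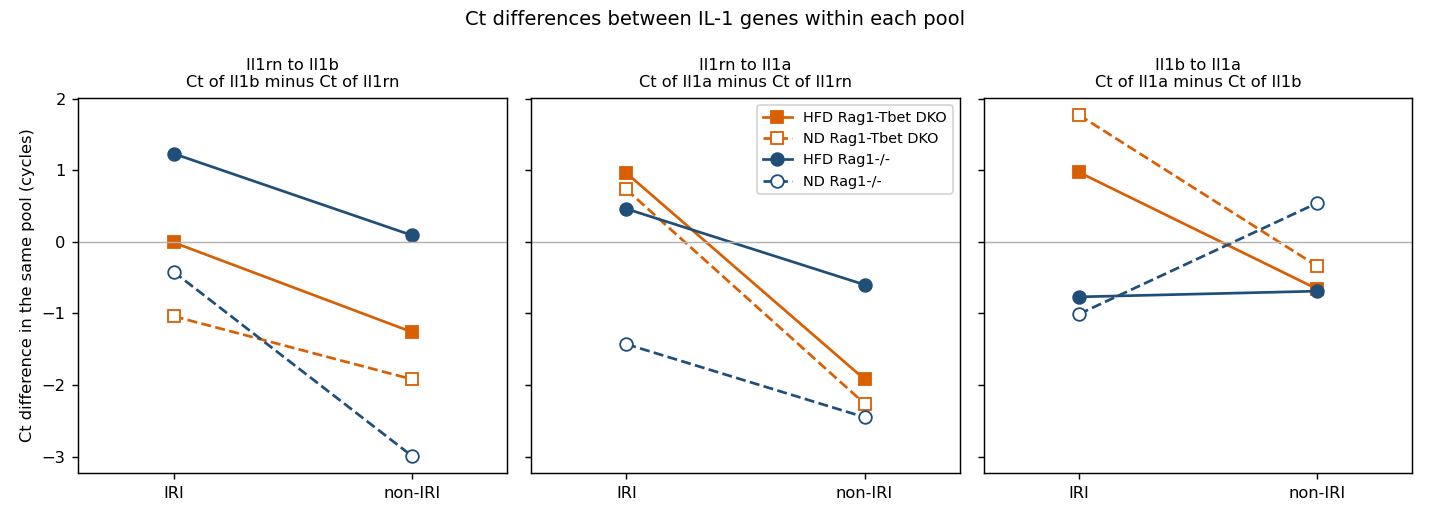
Ct difference in cycles between Il1rn and Il1b (left), Il1rn and Il1a (middle) and Il1b and Il1a (right) in IRI and non-IRI pools, with 1 line per genotype and diet and higher values for more of the first-named gene. All lines of the left and middle panels are higher at IRI, and in the middle panel the Rag1-Tbet DKO lines change by 2.88 and 2.99 cycles and the Rag1-/- lines by 1.06 and 1.02 cycles.

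The second comparison was of HFD with ND liver. In Rag1-/- mice Il1rn was 4.39-fold higher on HFD after IRI (log2 2.14, -5.815 in HFD and -7.95 in ND liver) and 7.84-fold higher without injury (log2 2.97, -6.62 in HFD and -9.59 in ND liver). It ranked 4 of 72 genes after IRI and 5 of 69 without injury by this difference, among genes below the limit in both pools. Of the genes left out, Cxcl3 (log2 at least 7.325) and Il27 (at least 6.435) lay above Il1rn after IRI. Without injury Cxcl3 (at least 3.69) did. The difference of Il1rn was above 0 in 7 of 7 reference settings, with a lowest log2 value of 1.69 after IRI and 1.05 without injury. In the uninjured comparison, some pairs of housekeeping genes shifted by 1 cycle or more against each other. In Rag1-Tbet DKO liver Il1rn on HFD was within 2-fold of ND, at log2 differences of -0.105 after IRI and -0.485 without injury.

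Il1b in Rag1-Tbet DKO liver was lower on HFD, by 2.20-fold after IRI and 2.21-fold without injury, and in Rag1-/- liver it was within 2-fold. Without injury it ranked 64 of 69 genes in Rag1-/- liver, where its log2 difference was -0.11 and the median of the array was 1.41. Il1a was 2.17-fold higher on HFD in uninjured Rag1-/- liver, below that median, and its log2 difference was -0.80 against the array's median Ct. Of 12 member values, 3 were at least 2-fold higher and 2 lower on HFD, or 3 higher and 1 lower of 9 without the ND Rag1-Tbet DKO non-IRI pool. After IRI, 8.75% of genes were higher and 22.5% lower with HFD feeding in Rag1-Tbet DKO liver, and 28.6% and 11.7% in Rag1-/- liver. Without injury the shares were 6.33% higher and 29.1% lower in Rag1-Tbet DKO liver, and 71.4% higher and 1.30% lower in Rag1-/- liver.

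Relative to Il1b, Il1rn was higher on HFD in 4 of 4 comparisons, by 1.03 cycles in injured and 0.66 cycles in uninjured Rag1-Tbet DKO liver and by 1.65 cycles in injured and 3.08 cycles in uninjured Rag1-/- liver. Relative to Il1a the gains were 0.23 and 0.34 cycles in injured and uninjured Rag1-Tbet DKO liver, against 1.89 and 1.85 cycles in injured and uninjured Rag1-/- liver. Of 72 genes, 34.7% were higher relative to Il1b and 22.2% relative to Il1a in all 4 comparisons. At least 1 cycle was gained on Il1b by 57.0% of genes in injured Rag1-Tbet DKO, 24.4% in uninjured Rag1-Tbet DKO, 18.4% in injured Rag1-/- and 73.7% in uninjured Rag1-/- liver. At least 1 cycle was gained on Il1a by 12.7%, 16.7%, 26.3% and 27.6% in that order. Losses of at least 1 cycle on Il1b were seen for 8.86%, 16.7%, 18.4% and 1.32% of genes, and on Il1a for 16.5%, 19.2%, 11.8% and 7.89%, again in that order. Of the 8 shifts with diet 5 were up by at least 1 cycle and 0 down, or 5 of 6 without the ND Rag1-Tbet DKO non-IRI pool. The diet comparisons and the injury comparisons share the same 8 pools and are not independent of each other.

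The third comparison was of Rag1-Tbet DKO with Rag1-/- liver, the question being what the loss of T-bet adds to that of Rag1. The Rag1-/- mice were purchased, the Rag1-Tbet DKO mice came from a cross with Tbx21-/- mice, and littermate controls are not described. With 1 pool per condition, an effect of T-bet loss cannot be told apart from a difference of line, cohort or pool. The largest member difference was in ND IRI liver, where Il1b was 8.34-fold higher in Rag1-Tbet DKO mice (-4.47) than in Rag1-/- mice (-7.53), rank 6 of 70 genes. Genes with only a bound were left out of that rank. Of these, Cxcl3 (log2 at least 12.8), Il27 (at least 6.89) and Il17a (at least 3.73) lay above Il1b (3.06). In HFD IRI liver Il1b was 2.71-fold higher (-5.605 in Rag1-Tbet DKO and -7.045 in Rag1-/- liver), rank 17 of 74. Both differences of Il1b were above 0 in 7 of 7 reference settings, at log2 values of at least 1.22 on HFD and 2.28 on ND. Without injury Il1b differed by less than 2-fold, with log2 differences of -0.275 on HFD and 0.76 on ND, and both signs turned against the array's median Ct (1.215 and -0.765).

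Il1rn differed between genotypes in both directions. On ND it was 5.43-fold higher in injured and 3.56-fold higher in uninjured Rag1-Tbet DKO liver. On HFD it was within 2-fold in injured (log2 0.20) and 3.08-fold lower in uninjured Rag1-Tbet DKO liver. Over the 7 reference settings the log2 difference ran between 1.66 and 2.69 in injured and between 0.305 and 1.87 in uninjured ND liver, and between -1.81 and -0.135 in uninjured HFD liver. Neither uninjured difference reached 2-fold against the array's median Ct. In uninjured ND liver, some pairs of housekeeping genes also shifted by 1 cycle or more against each other. Il1a was 3.12-fold higher in uninjured ND Rag1-Tbet DKO liver and within 2-fold in the other 3 comparisons, and its uninjured ND log2 difference of 1.64 was 0.115 against the array's median Ct. In all, 5 of 12 member values were higher and 1 lower in Rag1-Tbet DKO liver, or 3 and 1 of 9 without the ND Rag1-Tbet DKO non-IRI pool. Of all genes 30.8% were higher and 11.5% lower in HFD IRI, 1.30% and 54.5% in HFD non-IRI, 42.5% and 8.75% in ND IRI, and 45.6% and 8.86% in ND non-IRI liver. The antagonist relative to Il1b was lower in Rag1-Tbet DKO liver by 1.24 cycles in HFD IRI liver (a shift of -1.24, with 66.2% of genes down by at least 1 cycle), by 1.35 cycles in HFD non-IRI liver (-1.35, 46.1%) and by 0.62 cycles in ND IRI liver (-0.62, 72.2%), and higher by 1.07 cycles in ND non-IRI liver (25.6% up). Relative to Il1a it was higher by 2.16 cycles in ND IRI liver (40.5% up), lower in HFD non-IRI liver (-1.32, 44.7% down) and within 1 cycle in HFD IRI (0.50) and ND non-IRI liver (0.19). Of these 8 shifts 2 were up by at least 1 cycle and 3 down, or 1 up and 3 down of 6 without the ND Rag1-Tbet DKO non-IRI pool.

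**Figure D3:**
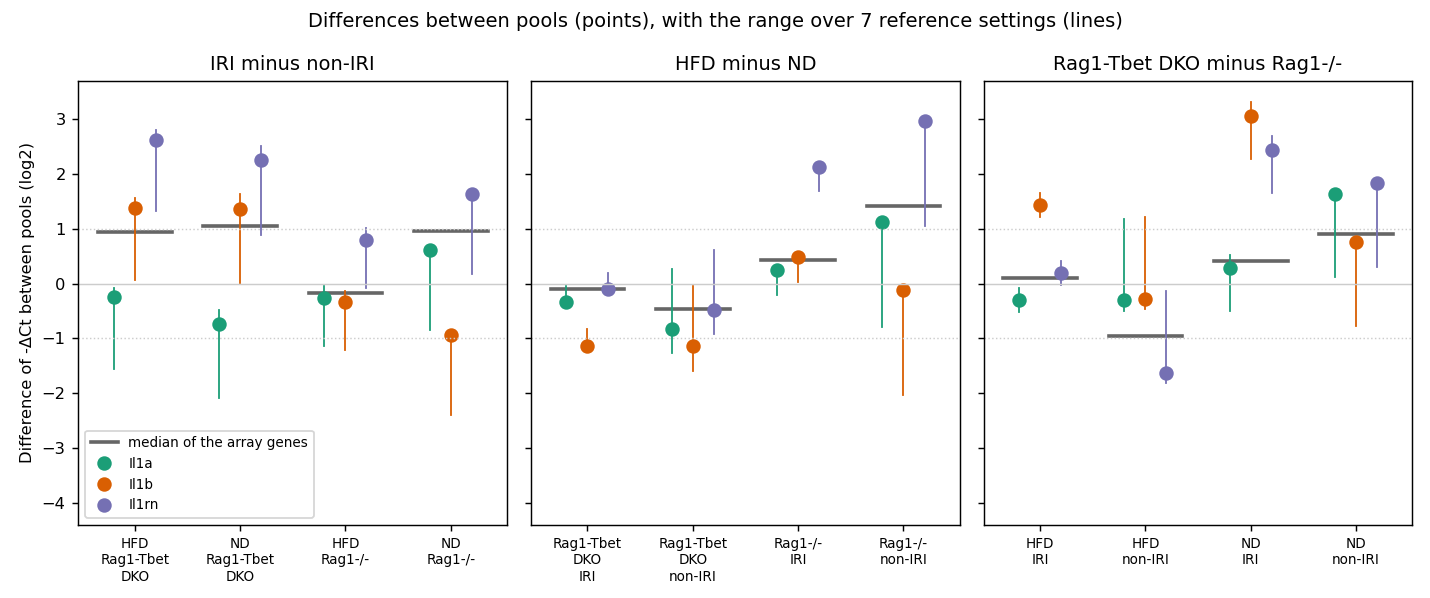
Difference of -ΔCt between pools (log2) for Il1a, Il1b and Il1rn in the 12 comparisons, as points for the references Actb and Hsp90ab1 and as vertical lines for the range over 7 reference settings, with a grey bar at the median of the array genes and dotted lines at 2-fold. Il1rn is at 2.14 with and 2.97 without IRI for HFD over ND in Rag1-/- liver and Il1b at 3.06 in ND IRI liver of Rag1-Tbet DKO over Rag1-/- mice.

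Genes that IL-1 is known to induce, in a list written with earlier results of these data known, were counted beside the agonists. Of 10 such genes (Il6, Cxcl1, Cxcl3, Cxcl5, Csf3, Csf2, Ccl2, Ccl20, Tnf and Lif), 9 passed 2-fold upward after IRI on each diet in Rag1-Tbet DKO mice and 0 downward, with HFD and ND median log2 differences of 2.58 and 2.16 (median of all genes 0.94 and 1.06). In HFD Rag1-/- liver 3 were higher and 1 lower (median 0.55, all genes -0.165). In ND Rag1-/- liver, where Cxcl3 was at the limit in both pools, 5 of 9 were higher and 2 lower (median 1.14, all genes 0.97). Among all genes, the upward share in Rag1-Tbet DKO mice was 55.8% on HFD and 50.0% on ND (downward 5.19% and 11.2%). The shares for Rag1-/- mice were 10.4% on HFD and 50.7% on ND (downward 15.6% and 5.33%). The upward count of 5 of 9 on ND was thus close to the array share. The listed genes are also targets of TNF and of Toll-like receptors, and the part of IL-1 in their levels was not tested.
The largest differences were those of Cxcl3, a neutrophil chemoattractant, with log2 values of 9.41 in HFD and 10.2 in ND Rag1-Tbet DKO liver against 3.87 in HFD Rag1-/- liver. Its Ct was 21.70 with and 30.95 without IRI on HFD in Rag1-Tbet DKO mice. For Cxcl5, another ligand of CXCR2, the log2 difference was 5.01 in HFD and 5.10 in ND Rag1-Tbet DKO liver, against 0.325 in HFD and 1.14 in ND Rag1-/- liver. Ccl20, the ligand of CCR6, had a log2 difference of at least 5.34 in Rag1-Tbet DKO mice on HFD, where it was at the limit without injury, and of 3.98 on ND. In Rag1-/- mice its log2 difference was 0.615 on HFD and 1.64 on ND. Csf2, which encodes GM-CSF, had log2 differences of 3.06 in Rag1-Tbet DKO and 3.125 in Rag1-/- mice on HFD, and of 1.07 in Rag1-Tbet DKO and 4.76 in Rag1-/- mice on ND. Its Ct in the non-IRI pool that stood apart was 19.59. Tnf was higher by 4.69-fold (HFD Rag1-Tbet DKO), 3.58-fold (ND Rag1-Tbet DKO) and 2.57-fold (ND Rag1-/-), and was 1.39-fold above the non-IRI level in HFD Rag1-/- liver.
Between genotypes, 9 of the 10 were higher in the injured ND liver of Rag1-Tbet DKO mice and 0 were lower (median log2 2.35, all genes 0.41). Il1b also differed most in that comparison, and a link between them was not tested. In HFD IRI liver 5 were higher and 0 lower (median 0.91, all genes 0.11). In HFD non-IRI liver 0 were higher and 7 lower (median -1.29, all genes -0.955), and the log2 difference of Il1b was -0.275 there. In ND non-IRI liver 3 were higher and 2 lower (median -0.10, all genes 0.905), while Il1a was 3.12-fold higher and Il1b 1.69-fold above the level of Rag1-/- liver. Of all genes, 42.5% were higher and 8.75% lower in ND IRI, and 30.8% and 11.5% in HFD IRI liver. Without injury the shares were 1.30% and 54.5% on HFD, and 45.6% and 8.86% on ND.

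**Figure D4:**
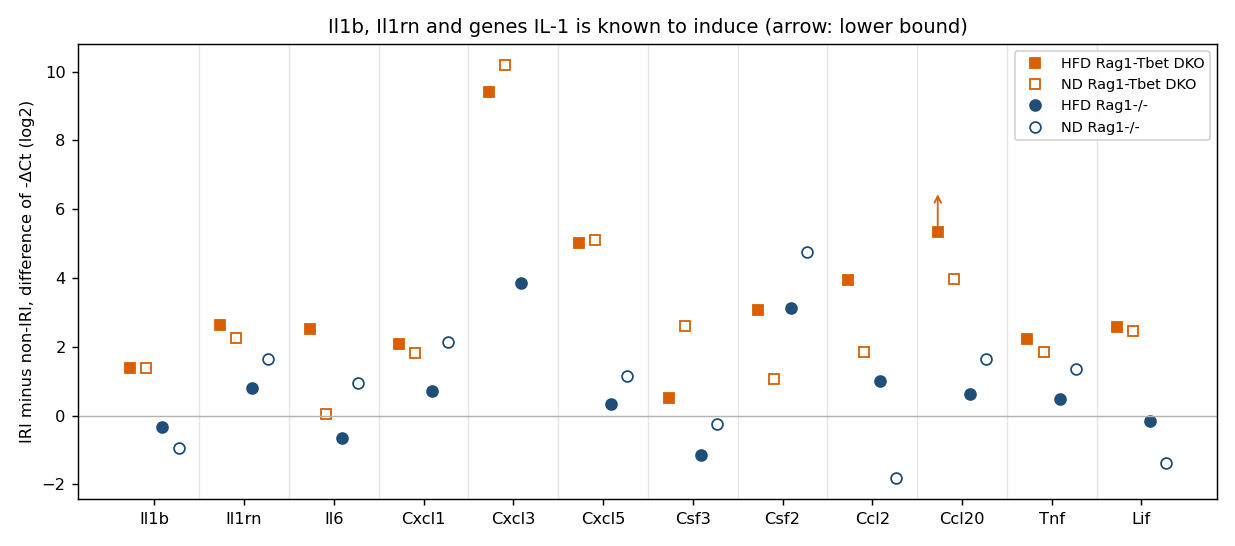
Difference of -ΔCt (log2) between IRI and non-IRI pools of the same diet for Il1b, Il1rn and 10 genes that IL-1 is known to induce, with 1 point per genotype and diet, an arrow for a lower bound and no point where both pools were at the limit. Squares (Rag1-Tbet DKO) reach 10.2 for Cxcl3, and for Il1b the squares are at 1.38 and 1.37 and the circles (Rag1-/-) at -0.335 and -0.93.

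Genes for products of monocytes, macrophages and neutrophils (Ccl3, Ccl4, Osm, Tnf, Il12b, Il23a and Il27) were counted in the same way. After IRI HFD Rag1-Tbet DKO liver had 6 of 7 higher and 1 lower, with 7 of 7 higher on ND, 1 higher and 1 lower in HFD Rag1-/- and 3 higher and 1 lower in ND Rag1-/- liver. These counts stand beside 55.8%, 50.0%, 10.4% and 50.7% of all genes higher in the same order. With HFD feeding 0 of 7 were higher and 1, Il12b, lower in injured Rag1-Tbet DKO liver (8.75% of all genes higher), and 2 were higher and 0 lower in uninjured (6.33%). In Rag1-/- liver 4 were higher in injured (28.6%) and 6 in uninjured pools (71.4%), and 0 were lower in either. Between genotypes, Rag1-Tbet DKO liver had 3 higher and 1 lower in HFD IRI pools (30.8% of all genes higher and 11.5% lower), 0 higher and 4 lower in HFD non-IRI pools (1.30% and 54.5%) and 5 higher and 0 lower in ND IRI pools (42.5% and 8.75%). In ND non-IRI pools 0 were higher and 2 lower (45.6% and 8.86%), while Il1rn was 3.56-fold higher there. Their summed level lay between -9.21 and -6.12 in IRI pools and between -10.0 and -8.21 in non-IRI pools, on the -ΔCt scale. The platelet chemokine genes Pf4 and Ppbp had summed levels between -8.72 and -5.84 in IRI pools and between -9.63 and -7.54 in non-IRI pools. Summed levels of the endothelial and stromal genes Cxcl12, Bmp2, Bmp4 and Bmp6 lay between -1.86 and -1.46 in IRI pools and between -2.62 and -1.39 in non-IRI pools. The part of these cell types in the levels of Il1rn and Il1b was not tested.

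Likeness of pattern was measured as the standard deviation, over the 8 pools, of the Ct difference between a gene and a member, which needs no reference gene. Il1rn was followed most closely by Ppbp (0.467 cycles), Tnf (0.505 cycles) and Spp1, the gene for osteopontin (0.559 cycles), of 61 genes with a median of 1.34 cycles. Tnf had Ct values of 26.31, 26.99, 26.89 and 27.79 in HFD Rag1-Tbet DKO, ND Rag1-Tbet DKO, HFD Rag1-/- and ND Rag1-/- IRI liver, and of 28.38, 27.41, 26.68 and 28.92 in the non-IRI livers in that order. It was thus latest in the ND Rag1-/- non-IRI pool, where Il1rn was latest as well. Il1b was nearest to Csf3 (0.678 cycles), Il6 (0.724 cycles) and Ccl24 (0.755 cycles), with a median of 1.18 cycles over 61 genes. Il1a was nearest to its family member Il18 (0.266 cycles), to Thpo, the thrombopoietin gene of hepatocytes (0.270 cycles), and to Ctf1, the gene for cardiotrophin-1 (0.286 cycles), with a median of 1.00 cycles. Among the members themselves, Il1b ranked 28 of 61 and Il1a 39 of 61 for likeness to Il1rn. Il1a ranked 13 of 61 for likeness to Il1b, and Il1b ranked 31 of 61 for likeness to Il1a.
Il18, the other IL-1 family gene on the array, had log2 differences after IRI of -0.75 in HFD Rag1-Tbet DKO, -0.88 in ND Rag1-Tbet DKO, -0.815 in HFD Rag1-/- and 0.85 in ND Rag1-/- liver. All 4 were within 2-fold, with signs as for Il1a in each comparison.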

How the data were processed

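Liver RNA of 8 pools was measured on a PCR array for mouse cytokines and chemokines. The authors pooled RNA of at least 3 livers in equal parts, made cDNA from 1.25 µg and ran 40 cycles with SYBR Green. The authors deposited 3 tables. The Ct table holds 1 value a well and none above 35. The normalized table holds a ratio to reference genes, 2 to the power of -ΔCt. The third table holds the authors' own comparisons, as folds, and was not used. The wells at 35 were 79 of 712. The deposited ratio values of the 3 genes in Rag1-/- pools matched the references Actb, Hsp90ab1 and Gapdh to within 0.0103 cycles. In the Rag1-Tbet DKO pools the references named in the methods (Nodal, Il9 and Csf1) left gaps of up to 0.952 cycles, and the deposited values were not compared between genotypes.

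Samples were grouped by their labels, and the wells of the Ct table were named through the symbols of the normalized table. The mean Ct of Actb and Hsp90ab1 served as reference, and pools were compared in 12 pairs (4 each for injury, diet and genotype). A difference of at least 1 cycle (2-fold) counted as higher or lower. Where 1 of the pools compared was at 35 the difference is a bound, and where both were, none was computed. Ranks and medians of differences leave out such genes. With 1 pool per condition, no test was run. The precision is limited by single wells, and no depth exists beyond the Ct values. The folds and calls were run on simulated data with known differences and no well noise. That run checks the arithmetic and cannot show how precise a single well is. Alternatives were other reference genes, the deposited normalized values, a Ct limit of 32, a 3-fold threshold, amplification by 1.9 per cycle and the ND non-IRI baseline. The difference of Il1b to Il1a and the counts without the ND Rag1-Tbet DKO non-IRI pool were added after seeing the data. The 3 genes and the gene lists were chosen with earlier results of these data known. Named genes are the 3 members, the 3 genes most like each, and up to 4 of each list with the largest absolute difference after IRI, with Tnf also named as the member of 2 lists and as a gene close to Il1rn. Of 89 RefSeq identifiers, 88 were found in the GRCm38.p6 gene table, all 88 with the same symbol. Il3 and Cd40lg were named after their values were seen. Computations used Python 3.11.15 with pandas 2.3.3, numpy 2.4.6 and matplotlib 3.10.9.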

Additional observations from a re-analysis of the deposited data

Results flagged for a closer look

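On ND, injury moved the Ct difference between the agonists in opposite directions in the 2 genotypes. Il1b gained 2.11 cycles on Il1a in Rag1-Tbet DKO liver, while the shift was -1.55 cycles in Rag1-/- liver, a difference of 3.66 cycles. It was not tested, since each shift rests on 4 wells. The ND Rag1-Tbet DKO side uses the non-IRI pool with the 2 lowest Ct values. On HFD, where that pool does not enter, the shifts were 1.63 cycles in Rag1-Tbet DKO and -0.08 cycles in Rag1-/- liver, a difference of 1.71 cycles.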

How the results depend on the processing

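Shifts between 2 of the 3 genes do not change with the reference genes by construction. Of 480 alternative values of 72 single differences and shifts, 397 kept their direction and side of the threshold and 1 difference past 2-fold turned round, Il1a on HFD in uninjured Rag1-/- liver, at -0.80 against the array's median Ct. A further 17 values of differences within 2-fold changed sign. Of these, Il1a and Il1b between genotypes in HFD non-IRI liver passed 2-fold the other way against the array's median Ct, at 1.185 for Il1a and 1.215 for Il1b. Another 45 values lost their call and 20 gained one.
Of the 12 member values after IRI, the main count of 5 higher became 1 with Nodal, Il9 and Csf1, 3 with the array's median Ct, 2 with the deposited normalized values and 3 at a 3-fold threshold. The count of 0 lower became 1 with Actb, Hsp90ab1 and Gapdh, 1 with all 5 housekeeping genes, 4 with Nodal, Il9 and Csf1, 3 with the array's median Ct, 3 with the deposited normalized values and 1 with the ND non-IRI baseline. For diet, the 2 lower became 1 with all 5 housekeeping genes, 1 with the array's median Ct, 1 with the deposited normalized values and 0 at a 3-fold threshold. Of the 3 higher, Il1a in uninjured Rag1-/- liver also fell below 2-fold with Actb, Hsp90ab1 and Gapdh (log2 0.91) and with all 5 housekeeping genes (0.60). The same was seen with Nodal, Il9 and Csf1 (0.20) and the deposited normalized values (0.91). Smaller changes of a count are not all listed here. For genotype, the 1 lower became 0 with the array's median Ct. At a 3-fold threshold the shifts of Il1rn against an agonist became 3 up with injury, and 1 up and 0 down between genotypes, and with amplification by 1.9 per cycle 5 were up with injury (7 in the main setting), 4 with diet (5) and 1 between genotypes (2). A Ct limit of 32 changed no count, since the member wells lie below it. The cause of these changes was not tested. No fit with a replicate block was made, because each condition is 1 pool with no replicate number, and no replicate could be left out. The 4 comparisons of a contrast could be taken as pairs of pools, and that sign-flip test, which is exact and cannot give a two-sided p below 0.125, was not run.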
